A study of Homo sapiens with 21 samples.

Results

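The genes examined were the integrins, the transmembrane receptors for the extracellular matrix, and the proteins that join them to the actin cytoskeleton inside the cell. Of 46 genes listed, 26 encode integrin subunits and 20 encode intracellular adhesion proteins. Members were the accessible sites of SK-N-BE(2), an established MYCN-amplified human neuroblastoma cell line, that the deposited annotation assigns to 1 of these genes as the nearest one. There were 533 such sites among 367900 in all, 274 of 25 integrin genes and 259 of 19 intracellular adhesion genes, and ITGAE and ZYX had none. The 7 groups of 3 libraries were profiled by ATAC-seq, which counts where the Tn5 transposase can insert adapters into open chromatin. All cells were transduced with a lentiviral short hairpin RNA (shRNA) and collected 72 h later. Control carried a non-silencing shRNA, shARID1A.2 and shARID1A.4 carried an shRNA against ARID1A, shARID1B.2 and shARID1B.3 one against ARID1B, and shARID1A/B.2.3 and shARID1A/B.4.2 carried shRNAs against both. ARID1A and ARID1B are alternative structural subunits of the BAF complex, an ATP-dependent remodeller that moves nucleosomes and keeps enhancers open. All libraries come from 1 cell line treated in biological triplicate, and the extent of silencing is not measured by ATAC-seq.

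An integrin is a heterodimer of an alpha and a beta subunit, and the pairing sets which matrix protein the cell can hold: collagen, laminin, or ligands that carry the RGD motif such as fibronectin and vitronectin. Talins and kindlins bind the beta tail and switch the receptor on, the ILK-PINCH-parvin complex and vinculin tie it to actin, and the kinases FAK and PYK2 with the scaffolds paxillin, p130Cas and NEDD9 pass the signal on. Cells derived from the neural crest, such as neuroblastoma cells, use these receptors to adhere and migrate. A site is named for the gene with the nearest transcription start site, and it may regulate another one.

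Libraries held 16140029 to 44472230 reads in sites. Sites annotated as promoters took 20.0% to 20.6% of the reads in Control, 20.9% to 24.1% with single silencing, 23.4% to 24.0% with shARID1A/B.2.3 and 24.8% to 25.1% with shARID1A/B.4.2. In Control libraries, the site nearest to the start of 8 adrenergic neuroblastoma markers held 2.43 to 43.9 CPM (the read count scaled to library depth), with TH the lowest, and those of 8 mesenchymal markers held 0.369 to 72.1 CPM. Those of 5 blood markers held 0.487 to 6.29 CPM and those of 5 markers of other lineages 0.178 to 2.08 CPM. A site was called lower or higher where the false discovery rate (FDR) was under 0.01 in the edgeR quasi-likelihood test, over the 357029 sites that passed the filter on low counts. Of the 533 member sites, 516 passed it, 265 of integrin genes and 251 of adhesion genes. Replicate 2 stood apart from the other libraries of its group in Control (chi-square per degree of freedom of 1.75 and 1.95, and 1.09 between the others) and in shARID1A/B.2.3 (2.47 and 2.19, and 1.09 between the others), where all other pairs of replicates had 1.08 to 1.56. Fewer cells with an open site and less open DNA per cell cannot be told apart in these bulk libraries.

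Below are the middle 200 bases of 6 member sites away from a start site, each the site of its gene with the largest called fall after silencing of both genes among those with a mean of at least 1 CPM. They were read from GRCh38, plus strand, to show DNA that lost accessibility. Capitals mark a match on either strand to a GATA word, AGATAA, to the E-boxes CAGATG or the palindrome CAGCTG, to a TEAD word, GGAATG, or to a GC box, GGGCGG. A match is a description of the letters and does not show that a factor was bound.
ITGA4 intron, chr2:181528690-181528889: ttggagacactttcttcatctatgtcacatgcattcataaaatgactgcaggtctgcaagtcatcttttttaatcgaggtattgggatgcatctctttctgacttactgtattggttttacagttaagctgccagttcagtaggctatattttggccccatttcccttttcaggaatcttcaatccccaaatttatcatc
ITGA9 intron, chr3:37521463-37521662: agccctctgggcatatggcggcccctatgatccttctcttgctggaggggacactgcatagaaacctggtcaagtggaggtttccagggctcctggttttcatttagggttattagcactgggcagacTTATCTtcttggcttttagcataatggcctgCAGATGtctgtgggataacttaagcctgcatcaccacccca
ITGA8 intron, chr10:15636135-15636334: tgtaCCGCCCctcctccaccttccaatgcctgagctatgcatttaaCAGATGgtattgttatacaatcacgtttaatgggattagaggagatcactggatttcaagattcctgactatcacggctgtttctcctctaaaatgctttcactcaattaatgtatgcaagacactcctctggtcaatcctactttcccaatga
ITGA6 upstream, chr2:172357290-172357489: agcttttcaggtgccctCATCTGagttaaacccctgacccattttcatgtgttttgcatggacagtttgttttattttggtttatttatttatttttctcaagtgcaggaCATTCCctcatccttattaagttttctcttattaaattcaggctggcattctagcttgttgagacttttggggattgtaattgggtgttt
FERMT1 upstream, chr20:6228899-6229098: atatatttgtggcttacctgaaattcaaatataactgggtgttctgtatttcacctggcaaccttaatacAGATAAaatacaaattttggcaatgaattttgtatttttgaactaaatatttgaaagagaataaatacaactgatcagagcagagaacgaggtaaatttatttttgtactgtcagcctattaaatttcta
ILK intron, chr11:6606896-6607095: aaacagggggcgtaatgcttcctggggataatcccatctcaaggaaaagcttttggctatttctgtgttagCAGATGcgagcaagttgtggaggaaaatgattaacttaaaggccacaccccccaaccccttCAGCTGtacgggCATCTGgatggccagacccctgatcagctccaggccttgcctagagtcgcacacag
The ITGA9 and FERMT1 windows held GATA words, and those of ITGA8, ITGA6, ITGA9 and ILK held CAGATG. The ITGA4 window held none of these words. Neither did the windows at the largest falls of TNS3, NEDD9, PARVA, ITGB6, ITGA2, ITGA11, LIMS1 and PXN, not printed here. Those of ITGAV, ITGA1, ITGB3, BCAR1 and TNS1, also not printed, did hold some. The 6 printed are a choice among these and do not show how common the words are.

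Silencing of both genes was compared with Control over the mean of the 2 combinations, to ask where accessibility changes when both ARID1 subunits are silenced. Of the integrin sites tested, 54 (20.4%) were lower and 7 (2.64%) higher, and of the adhesion sites 47 (18.7%) were lower and 8 (3.19%) higher, where 10.3% of all tested sites were lower and 3.43% higher. The 54 lower integrin sites belonged to 13 of the 25 genes (ITGA1, ITGA2, ITGA11, ITGA6, ITGA7, ITGA8, ITGAV, ITGA4, ITGA9, ITGB1, ITGB3, ITGB5 and ITGB6) and the 47 lower adhesion sites to 14 of 19. Of all 26740 genes with a tested site, 11789 had a lower one. The median log2 change was -0.07 over integrin sites and -0.08 over adhesion sites, against 0.03 over all tested sites. In all, 101 member sites were lower, 15 higher and 400 were not called. At 81 of the 101 lower sites the 6 combination libraries all lay below the 3 Control libraries, and 41 fell by at least 1 on the log2 scale. The calls rest on these same libraries, so the 81 and the 41 only describe the called sites. The like shares over all lower sites were not taken. With scaling on promoter sites, which moved the median of all tested sites to -0.199, 70 integrin sites were lower and 0 higher, and 69 adhesion sites were lower and 4 higher. Under that scaling 56825 of all 357029 tested sites were lower and 2601 higher. Neighbouring sites of a gene are not independent of each other. Lower sites numbered 48 and 47 without Control replicate 2 and 52 and 38 without shARID1A/B.2.3 replicate 2, for integrin and adhesion genes in that order. The number of higher integrin sites rested on single libraries: it was 3 without Control replicate 2, 11 without shARID1A/B.4.2 replicate 2 and 16 without shARID1A/B.2.3 replicate 2, and that of higher adhesion sites was 14 without shARID1A/B.2.3 replicate 2.

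**Figure D1:**
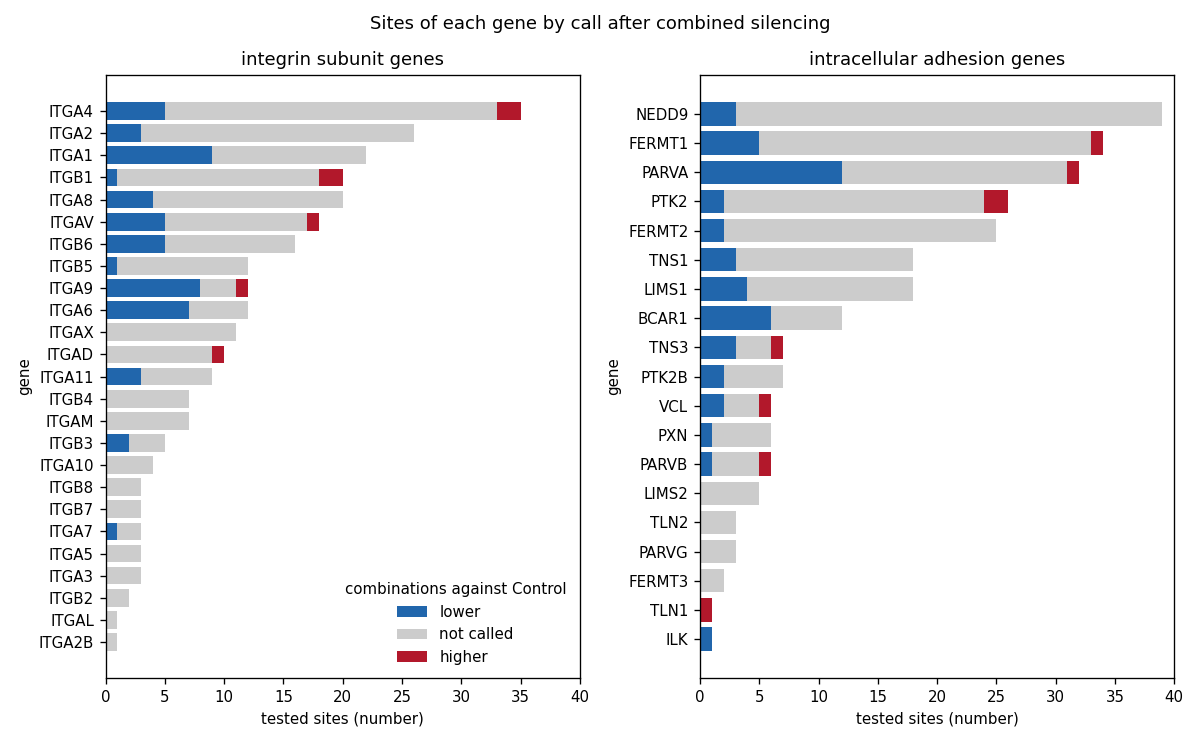
Number of tested sites of each integrin gene (left) and intracellular adhesion gene (right), split by call for the 2 combinations against Control. The lower sites were spread over 27 of the 44 genes, with 12 of 32 for PARVA, 9 of 22 for ITGA1, 8 of 12 for ITGA9 and 7 of 12 for ITGA6. Of all 26740 genes with a tested site, 11789 had a lower one.

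Among the alpha subunits that bind collagen, 15 of 61 tested sites (24.6%) were lower after combined silencing, against 10.3% of all tested sites. The median log2 change was -0.21. The calls fell on ITGA1, the collagen and laminin receptor of mesenchymal cells (9 of 22 sites), ITGA2, its neighbour on chromosome 5 (3 of 26), and ITGA11, a fibrillar collagen receptor of fibroblasts (3 of 9), while none of the 4 sites of ITGA10, a cartilage receptor, was called by edgeR. The 9 lower ITGA1 sites all lay in its introns, and 2 of the 3 lower sites named for ITGA2 also lay inside ITGA1. The ITGA1 site with the largest fall, in intron 1 of 28 (chr5:52804599-52804785, 16.4 kb from the start), held 2.65, 2.92 and 2.28 CPM in the 3 Control libraries, 0.591, 0.883 and 0.791 in shARID1A/B.2.3 and 0.941, 0.644 and 0.974 in shARID1A/B.4.2. The log2 change was -1.69 (SE 0.18, FDR 2.21e-13, edgeR), and the 6 combination libraries lay below all Control libraries. With single silencing it held 0.589, 0.812 and 0.629 CPM in shARID1A.2, 1.65, 1.85 and 1.88 in shARID1A.4, 1.99, 2.43 and 2.25 in shARID1B.2 and 2.54, 2.19 and 2.52 in shARID1B.3. Of the single groups, shARID1A.2 lay at the level of the combinations, and the other 3 lay between them and Control or overlapped with Control.

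A second ITGA1 site, in intron 6 (chr5:52877361-52879177), fell from 7.14 ± 0.515 CPM (SD, n = 3) in Control to 2.53 ± 0.288 in shARID1A/B.2.3 and 3.56 ± 0.514 in shARID1A/B.4.2, a log2 change of -1.26 (SE 0.11, FDR 1.66e-16, edgeR). At the site named for ITGA2 with the largest fall (chr5:52894073-52896258, in ITGA1 intron 9 of 28, 94.2 kb upstream of ITGA2) there were 8.56, 7.81 and 7.54 CPM in the 3 Control libraries, 3.51, 3.76 and 3.74 in shARID1A/B.2.3 and 3.05, 2.53 and 3.11 in shARID1A/B.4.2. Its log2 change was -1.28 (SE 0.11, FDR 8.26e-17, edgeR), and it was also below the single groups in each combination library. ITGA2 encodes the alpha2 collagen receptor of platelets and epithelia. The intergenic site of ITGA11 at chr15:68464378-68466106 held 3.81 ± 0.414 CPM in Control, 1.71 ± 0.317 in shARID1A/B.2.3 and 1.89 ± 0.128 in shARID1A/B.4.2, a log2 change of -1.09 (SE 0.15, FDR 1.87e-09, edgeR). It moved in opposite directions with the ARID1B shRNAs, at 5.63 ± 0.693 CPM with shARID1B.2 (edgeR FDR 0.00845) and 1.91 ± 0.0599 with shARID1B.3 (FDR 1.42e-06).

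Among the laminin-binding alpha subunits 8 of 18 tested sites were lower (44.4%, against 10.3% of all tested sites), with a median of -0.50. Of the 8, 7 belonged to ITGA6. ITGA6 encodes the alpha6 subunit, which pairs with beta1 or beta4 and is carried by many stem and progenitor cells. Of its 12 tested sites the 7 lower ones fell by 0.69 to 1.58 on the log2 scale, 6 of them upstream of the gene and 1 in intron 1. The largest fall was at the intergenic site chr2:172356738-172358042, 70.2 kb upstream, with 4.67, 4.19 and 5.37 CPM in the 3 Control libraries, 1.25, 1.53 and 1.76 in shARID1A/B.2.3 and 2.02, 1.66 and 1.34 in shARID1A/B.4.2. The log2 change was -1.58 (SE 0.14, FDR 1.18e-16, edgeR), and the combination and Control libraries did not overlap. The single shRNAs left 1.9, 1.38 and 2.11 CPM in shARID1A.2, 2.2, 1.94 and 2.32 in shARID1A.4, 3.88, 3.56 and 4.32 in shARID1B.2 and 4.49, 4.66 and 3.95 in shARID1B.3. The ARID1A shRNAs brought it near the level of the combinations, whereas all libraries of both ARID1B shRNAs held at least 3.56 CPM. The start site of ITGA6 held 10.3 ± 0.769 CPM in Control and 10.1 ± 1.24 and 10.8 ± 0.959 in the combinations, a log2 change of 0.02 (SE 0.097, FDR 0.932, edgeR). ITGA7, the laminin receptor of muscle, had 1 lower site of 3 (log2 -0.55, SE 0.14, FDR 0.00109 by edgeR), and the 3 sites of ITGA3, a receptor for epithelial laminin, were not called.

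Of the alpha subunits that bind RGD ligands, ITGA8 had 4 of 20 sites lower and ITGAV 5 of 18 lower and 1 higher, while neither the 3 sites of ITGA5, the fibronectin receptor, nor the 1 of ITGA2B, the platelet fibrinogen receptor, was called by edgeR. Over the 42 sites 21.4% were lower and 2.38% higher, against 10.3% and 3.43% of all tested sites, and the median was 0.02. The ITGA8 site in intron 12 of 28 (chr10:15635287-15637183, 84.1 kb from the start) held 10.7, 10.7 and 9.7 CPM in the 3 Control libraries, 3.05, 2.46 and 2.95 in shARID1A/B.2.3 and 3, 2.3 and 2.55 in shARID1A/B.4.2. In the single groups there were 4.57, 3.94 and 4.72 CPM in shARID1A.2, 4.9, 5.13 and 4.38 in shARID1A.4, 6.77, 4.74 and 5.52 in shARID1B.2 and 8.23, 8.09 and 7.86 in shARID1B.3. All combination libraries lay below all single-silencing libraries, and those lay below all Control libraries. The log2 change was -1.94 (SE 0.11, FDR 2.5e-27, edgeR) in the combinations, and it was -1.23 in shARID1A.2, -1.10 in shARID1A.4, -0.86 in shARID1B.2 and -0.36 in shARID1B.3, of which the last had an edgeR FDR of 0.021. ITGA8 encodes an RGD receptor that pairs with beta1.

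ITGAV encodes the alphaV subunit of the vitronectin receptors. Its site with the largest fall was intergenic, 46.5 kb upstream, and held 3.75, 3.49 and 3.09 CPM in the 3 Control libraries, 0.854, 0.674 and 0.879 in shARID1A/B.2.3 and 1.21, 0.69 and 0.881 in shARID1A/B.4.2, with no overlap. The log2 change was -2.00 (SE 0.17, FDR 1.73e-17, edgeR). Under single silencing the libraries held 1.54, 1.5 and 1.26 CPM in shARID1A.2, 1.65, 1.66 and 0.814 in shARID1A.4, 2.23, 2.2 and 2.12 in shARID1B.2 and 1.23, 1.61 and 1.47 in shARID1B.3. Values of all single groups lay below Control, and shARID1B.2 lay nearest to it (log2 -0.65, SE 0.18, FDR 0.0152 by edgeR). In the opposite direction, an ITGAV site in intron 19 (chr2:186664434-186665127) held 1.73 ± 0.228 CPM in Control, 3.54 ± 0.488 in shARID1A/B.2.3 and 2.27 ± 0.431 in shARID1A/B.4.2, a log2 change of 0.73 (SE 0.17, FDR 0.000316, edgeR). Control and shARID1A/B.4.2 overlapped there, and the change with shARID1A/B.4.2 alone was 0.40 (FDR 0.178).

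ITGA4 and ITGA9 encode the paired subfamily that binds VCAM1, fibronectin and tenascin and is used by migrating neural crest cells. Of their 47 tested sites 13 were lower (27.7%) and 3 higher (6.38%), where 10.3% of all tested sites were lower and 3.43% higher. The 3 higher were the start sites of both genes and an intergenic ITGA4 site 17.9 kb upstream (log2 0.70, SE 0.19, FDR 0.00313 by edgeR). The ITGA4 site in intron 22 of 27 (chr2:181528488-181529092, 71.9 kb from the start) had the largest fall of all member sites with a mean of at least 1 CPM, from 3.7, 3.53 and 3.17 CPM in Control to 0.328, 0.534 and 0.571 in shARID1A/B.2.3 and 0.538, 0.598 and 0.464 in shARID1A/B.4.2. The log2 change was -2.77 (SE 0.19, FDR 3.01e-23, edgeR). With single silencing it held 1.4, 1.34 and 1.08 CPM in shARID1A.2, 0.549, 0.786 and 0.501 in shARID1A.4, 0.805, 0.734 and 0.506 in shARID1B.2 and 0.53, 0.513 and 0.63 in shARID1B.3. Each single shRNA lowered it by itself, and the combinations overlapped with the single groups: the log2 change was -1.44 in shARID1A.2, -2.47 in shARID1A.4, -2.34 in shARID1B.2 and -2.65 in shARID1B.3, and the difference between combined and single silencing was -0.54 (SE 0.19, FDR 0.0437, edgeR).

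Another ITGA4 site, 45.5 kb upstream (chr2:181410809-181411897), was the most open of the lower ITGA4 sites. It held 15.7, 16.5 and 13.9 CPM in the 3 Control libraries, 9.59, 12.9 and 9.36 in shARID1A/B.2.3 and 5.06, 4.88 and 5.05 in shARID1A/B.4.2, a log2 change of -1.07 (SE 0.1, FDR 1.51e-15, edgeR). The combinations did not overlap with each other, and the log2 difference of shARID1A/B.2.3 from shARID1A/B.4.2 was 1.10 (SE 0.13, FDR 7.64e-11, edgeR). ITGA9 had 8 of 12 sites lower, in introns 1 to 15 over a span from 6.3 to 172.9 kb from the start. Its site in intron 11 of 27 (chr3:37521083-37522043) held 3.66, 2.47 and 3.17 CPM in the 3 Control libraries, 0.689, 0.418 and 0.791 in shARID1A/B.2.3 and 0.627, 0.644 and 0.603 in shARID1A/B.4.2, with a log2 change of -2.32 (SE 0.19, FDR 8.37e-19, edgeR). The single shRNAs left 1.27, 1.1 and 1.44 CPM in shARID1A.2, 0.687, 0.786 and 0.626 in shARID1A.4, 1.33, 1.35 and 1.56 in shARID1B.2 and 0.53, 0.652 and 0.882 in shARID1B.3. No single-silencing library reached the lowest Control library, and those of shARID1A.4 and shARID1B.3 overlapped with the combinations. The site in intron 14 (chr3:37537413-37538771) fell from 7.08 ± 1.21 CPM to 1.48 ± 0.088 in shARID1A/B.2.3 and 3.96 ± 0.44 in shARID1A/B.4.2 (log2 -1.54, SE 0.12, FDR 1.29e-19 by edgeR), and with shARID1B.2 it held 6.68 ± 0.34 CPM (FDR 0.801).

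**Figure D2:**
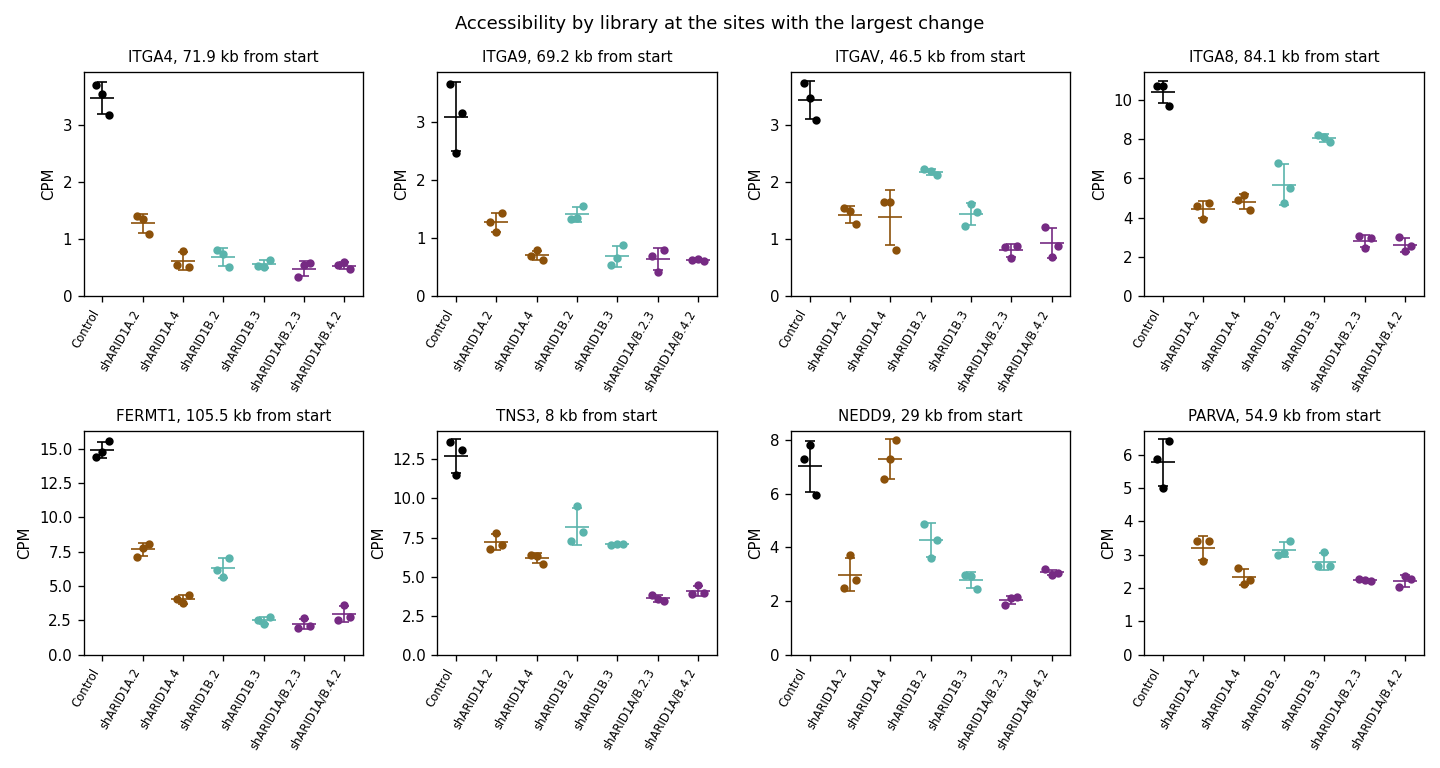
CPM of every library at the largest falls of ITGA4, ITGA9, ITGAV, ITGA8, FERMT1, TNS3, NEDD9 and PARVA, each point 1 library and each bar the mean with its SD over 3 libraries. Black marks Control, brown the ARID1A shRNAs, teal the ARID1B shRNAs and purple the combinations, whose libraries lie below all Control libraries at each of the 8 sites.

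The alpha subunits of leukocytes are ITGAD, ITGAL, ITGAM and ITGAX. Of their 29 tested sites, where 10.3% of all tested sites were lower and 3.43% higher, edgeR called 0 lower and 1 higher (3.45%), with 2 lower at an unadjusted p under 0.05, the DESeq2 Wald test called 0 lower, and the median log2 change was 0.14. With scaling on promoter sites 2 were lower and 0 higher, and the median was -0.09. Of all 357029 tested sites 56825 were then lower and 2601 higher, with a median of -0.199. The difference from the other subunits was not tested. The higher site is named for ITGAD but lies in exon 26 of 30 of ITGAX (chr16:31379511-31380583). It held 0.626, 0.452 and 0.762 CPM in the 3 Control libraries, 0.788, 1.12 and 0.967 in shARID1A/B.2.3 and 1.34, 1.1 and 1.76 in shARID1A/B.4.2, a log2 change of 0.92 (SE 0.25, FDR 0.00406, edgeR). All combination libraries lay above Control there, at levels that stayed under 2 CPM.

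Of 68 sites of the beta subunits, 9 were lower (13.2%) and 2 higher (2.94%), near the 10.3% and 3.43% of all tested sites, with a median of 0.07. ITGB6, whose alphaVbeta6 receptor activates latent TGF-beta, had 5 of 16 sites lower. The largest of these falls was 8.1 kb upstream (chr2:160207813-160209029), with 7.07, 7.77 and 7.18 CPM in the 3 Control libraries, 2.53, 2.65 and 3.03 in shARID1A/B.2.3 and 3.99, 5.34 and 3.8 in shARID1A/B.4.2, and the combination and Control libraries did not overlap (log2 -1.09, SE 0.11, FDR 1.42e-13 by edgeR). In the single groups there were 5.03, 4.39 and 4.67 CPM in shARID1A.2, 3.39, 4.39 and 4.7 in shARID1A.4, 7.2, 7.34 and 7.87 in shARID1B.2 and 3.29, 3.22 and 3.44 in shARID1B.3. shARID1B.2 overlapped with Control, whereas shARID1B.3 was near the combinations. Another ITGB6 site, 25 kb upstream, was the most open of its lower sites at 18.6 ± 0.499 CPM in Control and changed by -0.85 (SE 0.087, FDR 6.74e-14, edgeR).

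ITGB3, the beta subunit of the vitronectin and platelet receptors, had 2 of 5 sites lower. That in intron 2 of 14 (chr17:47274284-47277093) held 8.08, 7.36 and 9.86 CPM in the 3 Control libraries, 4.04, 2.93 and 4.4 in shARID1A/B.2.3 and 4.48, 4.42 and 4.13 in shARID1A/B.4.2, a log2 change of -1.07 (SE 0.12, FDR 1.48e-12, edgeR). The 6 combination libraries lay below the lowest Control library. With shARID1A/B.4.2 alone ITGB3 had 2 sites lower and 2 higher, and with shARID1A/B.2.3 alone 2 lower and 0 higher. ITGB5 had 1 of 12 sites lower (log2 -0.49, SE 0.13, FDR 0.00306 by edgeR). ITGB1, the common partner of most alpha subunits, had 1 lower site in intron 1 (log2 -0.61, SE 0.096, FDR 2.18e-07 by edgeR) and 2 higher ones of 20. One of the latter was its start site, and the other an intronic site (chr10:32903169-32903755) with 0.433, 0.247 and 0.401 CPM in the 3 Control libraries, 0.854, 0.697 and 0.879 in shARID1A/B.2.3 and 1.03, 0.828 and 0.51 in shARID1A/B.4.2, a log2 change of 1.14 (SE 0.31, FDR 0.00389, edgeR). Its Control libraries lay below all combination libraries, but all values were near or under 1 CPM. The sites of ITGB2, ITGB4, ITGB7 and ITGB8, 15 in all, were not called by edgeR.

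Among the activators, the talins and kindlins, 7 of 65 sites were lower (10.8%) and 2 higher (3.08%), shares close to the 10.3% and 3.43% of all tested sites. FERMT1, which encodes kindlin-1, held the adhesion site with the largest fall, an intergenic one 105.5 kb upstream (chr20:6228187-6229812). It had 14.4, 14.8 and 15.6 CPM in the 3 Control libraries, 1.97, 2.67 and 2.07 in shARID1A/B.2.3 and 2.55, 3.64 and 2.74 in shARID1A/B.4.2, a log2 change of -2.52 (SE 0.11, FDR 1.11e-35, edgeR). Under single silencing the libraries held 7.15, 7.8 and 8.09 CPM in shARID1A.2, 4.03, 3.74 and 4.38 in shARID1A.4, 6.16, 5.64 and 7.08 in shARID1B.2 and 2.54, 2.26 and 2.73 in shARID1B.3. Every single shRNA lowered it, from -0.96 with shARID1A.2 to -2.59 with shARID1B.3 on the log2 scale, and shARID1B.3 alone reached the level of the combinations. Of the other FERMT1 sites, 4 were lower, 3 of them 88.2 to 112.5 kb upstream, and the start site was higher. FERMT2, which encodes the broadly expressed kindlin-2, had 2 of 25 sites lower (log2 -0.75 and -0.78). The single tested site of TLN1, which encodes talin-1, was an intronic one, 2 kb from the start (chr9:35726943-35727162), that was higher: it held 0.481, 0.329 and 0.441 CPM in the 3 Control libraries, 1.02, 0.883 and 0.615 in shARID1A/B.2.3 and 0.896, 1.06 and 1.3 in shARID1A/B.4.2, a log2 change of 1.21 (SE 0.29, FDR 0.000798, edgeR). The 3 tested sites of TLN2 and the 2 of FERMT3, the kindlin of blood cells, were not called.

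The ILK-PINCH-parvin complex had 18 of 65 sites lower (27.7%) and 2 higher (3.08%), against 10.3% and 3.43% of all tested sites. ILK, the pseudokinase at its centre, had 1 site, in intron 2 of 11 (chr11:6606778-6607215), with 9.48, 9.25 and 7.82 CPM in the 3 Control libraries, 3.74, 4.11 and 3.82 in shARID1A/B.2.3 and 4.61, 5.15 and 4.87 in shARID1A/B.4.2. Its log2 change was -1.01 (SE 0.11, FDR 4.1e-13, edgeR) and the libraries did not overlap. With single silencing it held 4.44, 3.17 and 3.73 CPM in shARID1A.2, 7.05, 6.01 and 6.14 in shARID1A.4, 6.39, 6.66 and 5.8 in shARID1B.2 and 7.53, 6.73 and 5.59 in shARID1B.3. All single libraries lay below the lowest Control library, and those of shARID1A.2 overlapped with the combinations. PARVA, which encodes alpha-parvin, had the most lower sites of any member gene, 12 of 32, of which 9 lay in its first intron. That with the largest fall (chr11:12430928-12431701, 54.9 kb from the start) held 5.87, 5.01 and 6.41 CPM in the 3 Control libraries, 2.27, 2.25 and 2.2 in shARID1A/B.2.3 and 2.02, 2.35 and 2.27 in shARID1A/B.4.2, a log2 change of -1.37 (SE 0.12, FDR 3.04e-16, edgeR). The single shRNAs left 3.4, 2.8 and 3.41 CPM in shARID1A.2, 2.61, 2.13 and 2.25 in shARID1A.4, 2.98, 3.05 and 3.4 in shARID1B.2 and 2.65, 3.08 and 2.65 in shARID1B.3. All single groups lay below Control. The most open of the 12 (chr11:12460857-12462142) went from 21.7 ± 0.516 CPM to 16.2 ± 0.844 and 11 ± 0.799 (log2 -0.70, SE 0.084, FDR 3.98e-11 by edgeR).

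LIMS1, which encodes PINCH1, had 4 of 18 sites lower, all in intron 1. The most open of them (chr2:108616347-108618955) held 16.9, 14.5 and 16.6 CPM in the 3 Control libraries, 7.81, 6.76 and 6.99 in shARID1A/B.2.3 and 9.18, 9.66 and 8.67 in shARID1A/B.4.2, a log2 change of -0.98 (SE 0.09, FDR 6.94e-16, edgeR). In the single groups there were 8.33, 8.69 and 10.5 CPM in shARID1A.2, 14.6, 14.1 and 13.2 in shARID1A.4, 13.5, 15.8 and 14.4 in shARID1B.2 and 14, 13.2 and 13.8 in shARID1B.3. Of the single groups, only shARID1A.2 overlapped with the combinations. PARVA also had 1 higher site, in exon 1 (log2 0.40, SE 0.089, FDR 0.000233 by edgeR). PARVB had 1 lower site (log2 -0.64) and 1 higher site, in intron 1 (chr22:44023677-44025341), which held 3.99, 3.66 and 3.85 CPM in Control, 4.6, 3.21 and 5.01 in shARID1A/B.2.3 and 6.94, 7.32 and 7.33 in shARID1A/B.4.2. The rise came with shARID1A/B.4.2 (log2 0.91, SE 0.15, FDR 9.65e-07 by edgeR), and shARID1A/B.2.3 overlapped with Control (FDR 0.638). The 5 sites of LIMS2 and 3 of PARVG were not called.

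Of the adhesion kinases, PTK2, which encodes FAK, had 2 sites lower and 2 higher of 26, and PTK2B, which encodes PYK2, had 2 of 7 lower. Together this was 12.1% lower, near the 10.3% of all tested sites. The PTK2B site in intron 1 of 29, 15.4 kb from the start, held 5.15, 2.75 and 4.29 CPM in the 3 Control libraries, 1.77, 1.35 and 1.63 in shARID1A/B.2.3 and 2.29, 2.12 and 2.37 in shARID1A/B.4.2, a log2 change of -1.10 (SE 0.15, FDR 1.58e-09, edgeR). Control replicate 2 lay nearest to the combinations, but no library overlapped. The higher PTK2 sites were its start site and an intergenic one 33.9 kb upstream, which held 1.25, 1.19 and 1.2 CPM in the 3 Control libraries, 2.59, 1.56 and 2.24 in shARID1A/B.2.3 and 1.84, 1.98 and 1.62 in shARID1A/B.4.2 (log2 0.68, SE 0.19, FDR 0.00601 by edgeR).

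All 6 scaffold genes with sites had lower ones, 18 of 88 sites in all (20.5%, against 10.3% of all tested sites). The median log2 change was -0.13. TNS3, which encodes a tensin that binds integrin tails and actin, had 3 of 7 sites lower, side by side in intron 1. The middle one (chr7:47573629-47574590, 8 kb from the start) held 13.6, 11.5 and 13.1 CPM in the 3 Control libraries, 3.84, 3.55 and 3.43 in shARID1A/B.2.3 and 3.9, 4.46 and 3.94 in shARID1A/B.4.2, a log2 change of -1.72 (SE 0.1, FDR 8.38e-27, edgeR). Under single silencing the libraries held 6.79, 7.76 and 7.05 CPM in shARID1A.2, 6.41, 6.29 and 5.82 in shARID1A.4, 7.25, 9.54 and 7.82 in shARID1B.2 and 7, 7.11 and 7.06 in shARID1B.3. The combinations lay below all single libraries and these below all Control libraries. BCAR1, which encodes p130Cas, had 6 of 12 sites lower with falls of 0.57 to 1.06, and 3 of them lay in introns of the neighbouring CFDP1. The largest fall was at chr16:75282416-75283327 (log2 -1.06, SE 0.14, FDR 5.86e-10 by edgeR), from 4.21 ± 0.265 CPM in Control to 1.76 ± 0.256 in shARID1A/B.2.3 and 2.36 ± 0.172 in shARID1A/B.4.2.

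NEDD9, which encodes the p130Cas relative HEF1, had 3 of 39 sites lower. That with the largest fall (chr6:11410262-11412389, 29 kb upstream) held 7.31, 7.81 and 5.97 CPM in the 3 Control libraries, 1.87, 2.11 and 2.15 in shARID1A/B.2.3 and 3.18, 2.99 and 3.06 in shARID1A/B.4.2, a log2 change of -1.48 (SE 0.12, FDR 2.1e-18, edgeR). With single silencing it held 2.49, 3.7 and 2.78 CPM in shARID1A.2, 6.55, 7.3 and 8.02 in shARID1A.4, 4.88, 3.61 and 4.28 in shARID1B.2 and 2.96, 2.94 and 2.44 in shARID1B.3. It was at the Control level with shARID1A.4 and below all Control libraries in the other 3 single groups. TNS1 had 3 of 18 sites lower, led by one in intron 17 (log2 -0.95, SE 0.12, FDR 5.14e-10 by edgeR). PXN, which encodes paxillin, had 1 of 6 (log2 -0.97, SE 0.12, FDR 3.97e-11 by edgeR). VCL, which encodes vinculin, had 2 lower sites of 6, one 31.8 kb upstream (log2 -0.70, SE 0.14, FDR 2.45e-05 by edgeR) and one in intron 1 (log2 -1.30, SE 0.31, FDR 0.000712 by edgeR), while its start site was higher.

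**Figure D3:**
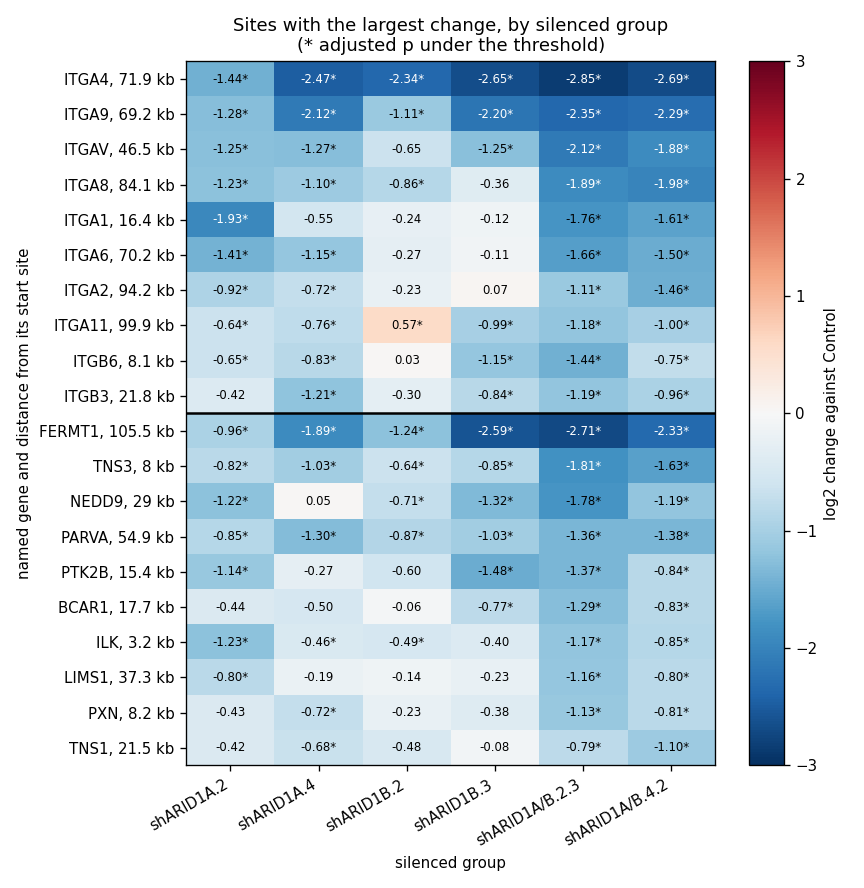
Log2 change against Control of the 20 sites with the largest change of their gene, 10 of integrin genes and 10 of adhesion genes (rows), in each of the 6 silenced groups (columns), with an asterisk where the edgeR FDR was under 0.01. The combinations carry an asterisk at all 20 sites, and shARID1B.2 has the fewest.

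Each silenced group was compared with the same 3 Control libraries, so the counts below share those libraries. With shARID1A/B.2.3, 101 of 516 member sites were lower and 12 higher, where 10.4% of all tested sites were lower and 2.85% higher. With shARID1A/B.4.2, 63 were lower and 22 higher, against 7.37% and 3.97% of all tested sites. Of the single groups, shARID1A.2 had 45 lower and 4 higher (4.54% and 0.834% of all tested sites), shARID1A.4 had 42 and 10 (4.17% and 2.28%), shARID1B.2 had 14 and 9 (1.84% and 1.34%), and shARID1B.3 had 52 and 12 (4.88% and 3.12%). As shares of the 516, the lower sites made up 19.6%, 12.2%, 8.72%, 8.14%, 2.71% and 10.1% in that order, above the share over all tested sites in each group. Higher sites made up 2.33%, 4.26%, 0.775%, 1.94%, 1.74% and 2.33%, near the share over all sites. Integrin genes held 27 of the lower sites of shARID1A.2, 28 of those of shARID1A.4, 7 of shARID1B.2 and 27 of shARID1B.3. ITGA1 had 5 lower sites with shARID1A.2 and 1 with shARID1B.2, ITGAV had 6 with shARID1B.3, and PARVA had 7 with shARID1B.3 and 3 with shARID1A.2. Libraries of shARID1B.3 were deeper, with up to 44472230 reads, than those of shARID1B.2, with at most 21634157, and the part of depth in the smaller number of calls with shARID1B.2 was not tested. The counts of higher sites rested on single libraries. For shARID1A/B.2.3 it was 7, 7 and 6 without Control replicates 1, 2 and 3, and for shARID1A/B.4.2 it was 13 without its replicate 3. For shARID1A.2 it was 2 without Control replicate 2 and without its own replicates 1 or 3, and for shARID1A.4 it was 6 without Control replicate 2 and 5 without its replicate 1. For shARID1B.2 it was 5, 4 and 5 without Control replicates 1, 2 and 3 and 3 and 5 without its replicates 2 and 3, and for shARID1B.3 it was 5 without Control replicate 2 and 6 without its replicate 1.

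Combined silencing was then compared with the mean of the 4 single groups, which leaves out Control and asks whether the sites lie below that mean. A site can be lower here although a single shRNA alone reached the level of the combinations, as shARID1B.3 did at FERMT1 upstream. At the LIMS1 site in intron 1, shARID1A.2 overlapped with the combinations. Of 516 member sites 60 were lower in the combinations (11.6%) and 2 higher, where 6.85% of all tested sites were lower and 0.969% higher. The lower sites were shared evenly, 30 of 12 integrin genes and 30 of 11 adhesion genes, where 9742 of all 26740 genes had a lower site. ITGA1 had 7 of its 22 sites lower, PARVA 6 of 32, BCAR1 5 of 12 and ITGA9, ITGB6 and NEDD9 4 each. The scaffolds had 16 of 88 sites lower and the collagen-binding subunits 10 of 61. Among the integrin sites the smallest p-values were those of ITGA8 in intron 12 (log2 -1.05, SE 0.091, FDR 2.88e-16 by edgeR), ITGA1 in intron 6 (-0.97, SE 0.086, FDR 8.77e-16 by edgeR) and the ITGA2 site in ITGA1 intron 9 (-0.83, SE 0.088, FDR 1.32e-12 by edgeR). Among the adhesion sites they were those of TNS3 in intron 1 (-0.89, SE 0.081, FDR 2.15e-15 by edgeR), LIMS1 in intron 1 (-0.64, SE 0.068, FDR 1.72e-12 by edgeR) and FERMT1 upstream (-0.85, SE 0.094, FDR 6.11e-12 by edgeR). The 2 higher sites were the start sites of FERMT1 (0.27, SE 0.056, FDR 0.000198 by edgeR) and TNS3 (0.22, SE 0.063, FDR 0.00842 by edgeR). That count was 4 without shARID1A.4 replicate 1, shARID1B.2 replicate 1 or shARID1B.3 replicate 2. It was 1 without shARID1A.2 replicate 3, replicate 2 or 3 of shARID1A.4 or shARID1B.2, shARID1B.3 replicate 3, shARID1A/B.2.3 replicate 2, or shARID1A/B.4.2 replicate 2 or 3.

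The ARID1A shRNAs were compared with the ARID1B shRNAs by the difference of their means, also without Control. Of the member sites 27 were lower with ARID1A silencing and 7 higher, where 3.69% of all tested sites were lower and 1.05% higher, and 18 of the 27 belonged to integrin genes. ITGA6 had the largest of these, at an upstream site 54.6 kb from the start (log2 -1.23, SE 0.12, FDR 4.73e-13 by edgeR) and at that 70.2 kb away (-1.09, SE 0.12, FDR 1.33e-11 by edgeR). Next to them stood the ITGA1 site in intron 1 (-1.06, SE 0.15, FDR 6.02e-08 by edgeR), and the difference was smaller at ITGA2 (-0.74, SE 0.094, FDR 1.39e-09 by edgeR) and ITGA8 (-0.56, SE 0.095, FDR 4.78e-06 by edgeR). FERMT1 upstream (0.49, SE 0.1, FDR 0.000177 by edgeR) and NEDD9 (0.43, SE 0.11, FDR 0.00306 by edgeR) went the other way, with the lower mean for ARID1B silencing. The single shRNAs did not order by target at FERMT1, where all libraries of shARID1A.4 lay below those of shARID1B.2. The shRNAs against the same gene gave unlike values at some of these sites, a difference that was not tested. At NEDD9, shARID1A.2 gave a log2 change of -1.22 and shARID1A.4 one of 0.05, and at ITGA1 the same pair gave -1.93 and -0.55.

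The combinations were compared with each other as shARID1A/B.2.3 minus shARID1A/B.4.2. Of the member sites 27 were lower with shARID1A/B.2.3 and 7 higher, where 3.79% of all tested sites were lower and 1.43% higher. Among sites with a mean of at least 1 CPM, the largest difference lay in ITGA1 intron 2 (chr5:52858898-52860373), which held 6.59, 6.74 and 6.17 CPM in Control, 2.1, 2.25 and 2.07 in shARID1A/B.2.3 and 6.14, 7.13 and 6.91 in shARID1A/B.4.2 (log2 difference -1.64, SE 0.14, FDR 3.23e-16 by edgeR). With shARID1A/B.4.2 it overlapped with Control, so the fall came from 1 combination. The single shRNAs left 3.12, 4.02 and 3.1 CPM in shARID1A.2, 8.01, 7.3 and 7.08 in shARID1A.4, 5.54, 5.64 and 5.2 in shARID1B.2 and 3.93, 4.8 and 3.44 in shARID1B.3. At the start site of FERMT1 the change against Control came from the other combination, with 15.8, 15.3 and 15.4 CPM in Control, 16.9, 18 and 15.7 in shARID1A/B.2.3 and 29.8, 27.2 and 26.8 in shARID1A/B.4.2 (log2 difference -0.72, SE 0.091, FDR 1.72e-09 by edgeR). BCAR1 in CFDP1 intron 5 (-1.01, SE 0.12, FDR 2.31e-10 by edgeR) and TNS3 at 10.4 kb (-0.80, SE 0.11, FDR 5.03e-08 by edgeR) were likewise lower with shARID1A/B.2.3. The number of sites higher with shARID1A/B.2.3 was 4 without its replicate 2 and 3 without any 1 replicate of shARID1A/B.4.2. With scaling on promoter sites 14 were lower and 16 higher, where 6443 of all 357029 tested sites were lower and 11832 higher.

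Few start sites lost accessibility. Of 29 genes with a tested site within 1 kb of the start, 7 had it higher after combined silencing (24.1%), 2 lower (6.90%), and 23 had a log2 change above 0. Of all tested sites within 1 kb of a start, 31.8% were higher and 3.72% lower, and the median log2 change was 0.23, against 0.25 over the 29. The 7 were PTK2 (log2 0.50, SE 0.082, FDR 7.48e-07 by edgeR), FERMT1 (0.49, SE 0.083, FDR 1.45e-06 by edgeR), VCL (0.47, SE 0.083, FDR 4.34e-06 by edgeR), TNS3 (0.38, SE 0.092, FDR 0.000837 by edgeR), ITGA9 (0.38, SE 0.1, FDR 0.00293 by edgeR), ITGB1 (0.34, SE 0.074, FDR 0.000162 by edgeR) and ITGA4 (0.33, SE 0.084, FDR 0.00159 by edgeR). ITGB1, with 42.5 ± 1.74 CPM in Control, 51.5 ± 3.04 in shARID1A/B.2.3 and 56.2 ± 2.07 in shARID1A/B.4.2, was the most open of them. The 2 lower were TNS1 (-0.37, SE 0.09, FDR 0.001 by edgeR) and PTK2B (-0.36, SE 0.11, FDR 0.00883 by edgeR). Sites annotated as promoters, a set that differs from the sites within 1 kb, did not show the same rise. Of 24 such member sites 12.5% were lower and 8.33% higher, with a median of 0.02. Over all tested sites annotated as promoters 4.24% were lower and 33.4% higher, with a median of 0.23. In Control libraries the 29 sites held 0.331 to 62.5 CPM, with a median of 9.84, and ITGB8, the most open, did not pass the test at 0.06 (SE 0.068, FDR 0.646, edgeR). The share of reads in promoter sites moved with these rises, from 20.0% to 20.6% in Control to 23.4% to 25.1% in the combinations, and scaling on promoter sites left 3 of the 29 higher and 6 lower with a median of 0.02.

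Lower sites lay away from the start sites. Within 1 kb 6.90% of member sites were lower, from 1 to 10 kb 13.6%, from 10 to 100 kb 20.8% and beyond 100 kb 27.5%, where the shares over all tested sites were 3.72%, 10.8%, 11.2% and 9.63%. Beyond 100 kb this was 14 of 51 sites. The median distance of the 101 lower sites from the start was 36.5 kb, and 65 of them lay inside the gene they are named for. For the 400 sites not called the median was 30.3 kb, and 263 lay inside the named gene. The lower integrin sites lay farther out than those not called (46.0 and 25.6 kb), and the lower adhesion sites nearer (30.5 and 34.4 kb). ITGA4, ITGA9, ITGB1, FERMT1, TNS3, VCL and PTK2 each had a higher start site together with lower sites farther out. With shARID1A/B.2.3 alone, no site of ITGA9, FERMT1 or TNS3 was called higher. Scaling on promoter sites left 3 of the 29 tested start sites higher. For ITGA9 the start site changed by 0.38 on the log2 scale while intron 11 changed by -2.32, and for FERMT1 these were 0.49 and, 105.5 kb upstream, -2.52.

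**Figure D4:**
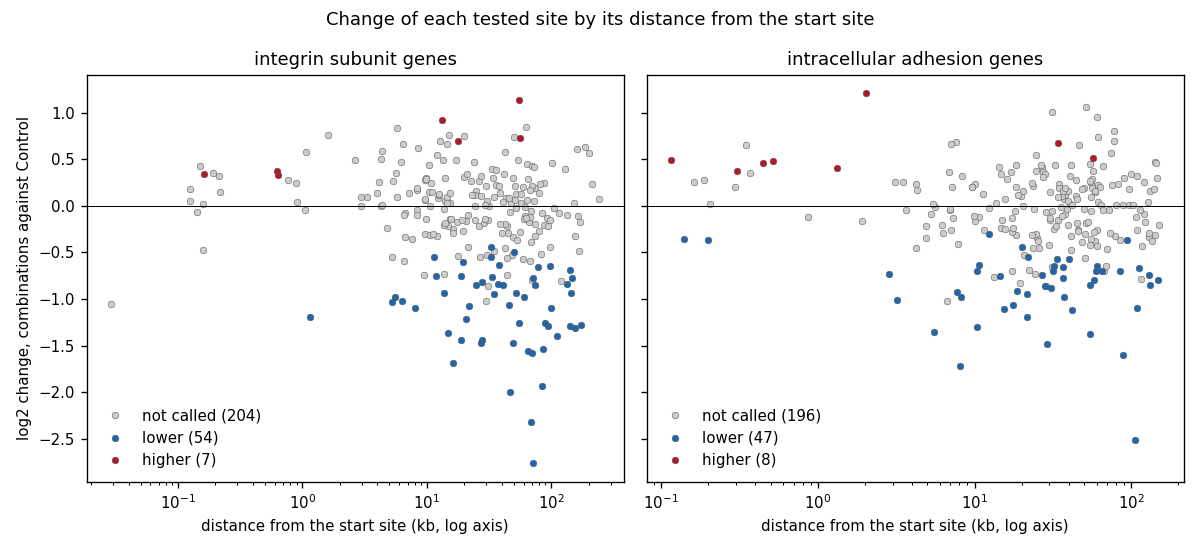
Log2 change (combinations against Control) of each tested member site by its distance from the start site in kb on a log axis, for integrin genes (left) and adhesion genes (right), coloured by call. The sites within 1 kb lie mostly above 0, and falls of over 1 lie beyond 1 kb, apart from the ITGAV start site at -1.06, which was not called.

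The middle 300 bases of the tested sites were searched on both strands for 7 short motifs. Of the 101 lower member sites 12.9% held the AP-1 motif TGAGTCA, against 6.51% of all tested sites and 8.53% of all lower sites. The AP-1 motif stood in 9 of the 47 lower adhesion sites and 4 of the 54 lower integrin sites. The E-box CAGATG was in 32.7% of the lower member sites (23.0% of all tested, 33.0% of all lower), CAGCTG in 27.7% (17.6% and 20.2%), AGATAA in 21.8% (17.0% and 24.7%) and GGAATG in 17.8% (16.8% and 17.9%). The homeobox core TAATTA was in 5.94%, where 7.87% of all tested sites and 14.1% of all lower sites held it. Of the 400 member sites not called, 7.5% held the AP-1 motif, 22.5% CAGATG, 23.2% CAGCTG, 15.0% AGATAA, 18.8% GGAATG and 6.25% TAATTA. The GC box GGGCGG was in 8 of the 15 higher member sites (53.3%), 9.06% of all tested and 46.4% of all higher sites. The lower member sites had a median GC content of 46.0% and the higher ones of 68.3%.

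Adding up the counts of all sites of a gene gave 1 value per gene. Of 25 integrin genes 9 were lower after combined silencing, and of 19 adhesion genes 10 were lower and 2 higher, where 20.9% of 26743 genes were lower and 15.9% higher. edgeR called 0 integrin genes higher, with 4 higher at an unadjusted p under 0.05. The largest falls among the integrins were those of ITGA6 (log2 -0.65, SE 0.055, edgeR FDR 2.36e-09), ITGB6 (-0.64, SE 0.047, FDR 2.72e-10) and ITGA9 (-0.62, SE 0.055, FDR 5.07e-09), followed by ITGA11, ITGA8, ITGA1, ITGAV, ITGA4 and ITGA2 (-0.56 to -0.19). Among the adhesion genes ILK, with its 1 site, fell most (-1.07, SE 0.097, FDR 7.05e-09), then TLN2 (-0.79, SE 0.19, FDR 0.00184), none of whose sites was called alone, and TNS3 (-0.65, SE 0.042, FDR 2.64e-11). PTK2B, LIMS1, NEDD9, PARVA, BCAR1, TNS1 and FERMT1 fell by 0.46 to 0.21. The sum of TLN1, again 1 site, rose by 1.15 (SE 0.29, FDR 0.00244) and that of VCL by 0.23 (SE 0.058, FDR 0.00214). Without Control replicate 2 the number of higher adhesion genes was 0 and without Control replicate 3 it was 1. The number of higher integrin genes was 1 without Control replicate 3 or shARID1A/B.2.3 replicate 2 or 3. The sums of ITGB1 (0.15, FDR 0.021) and PTK2 (0.15, FDR 0.0194) did not pass the test.

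**Figure D5:**
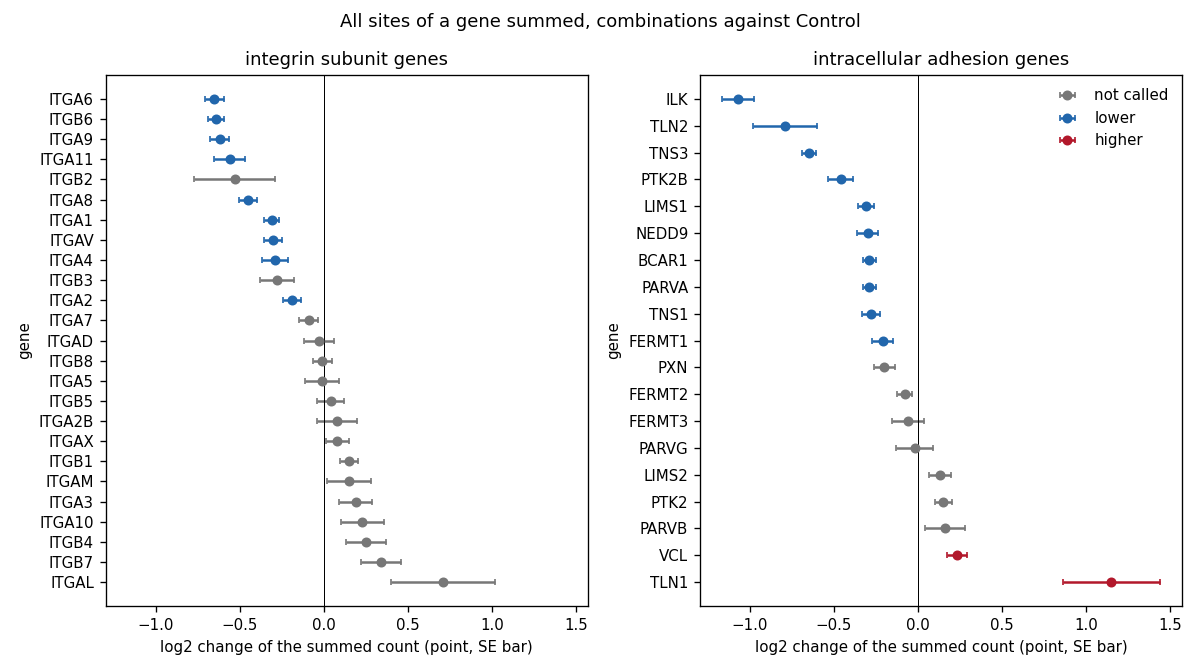
Log2 change of the summed count of each gene (point) with its SE (bar), combinations against Control, for integrin genes (left) and adhesion genes (right). ITGA6, ITGB6 and ITGA9 lie near -0.6 with narrow bars, ILK at -1.07, and TLN1 at 1.15 with an SE of 0.29.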

How the data were processed

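ATAC-seq reads of 21 libraries were counted by the authors at consensus sites, called after the replicates of each group were merged, and deposited as raw read counts per site and library on GRCh38, with the distance in bases to the nearest start site from HOMER. The submitters' processing notes name DESeq2. The sources used here do not name the aligner or the peak caller. Deposited columns of normalised values, of which there were 36, and of the authors' own fold changes and p-values were not used.

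Counts of all 7 groups were fitted in 1 model with the edgeR 4.0.16 quasi-likelihood test (R 4.3.3, limma 3.58.1), with TMM scaling and edgeR's filter on low counts at a minimum count of 10, which removed 10871 of 367900 sites. The common biological coefficient of variation was 0.0817. P-values were adjusted by the Benjamini-Hochberg method over all 357029 tested sites, in 2-sided tests. CPM values were counts divided by TMM-scaled totals, and SE is that of the log2 change. Read totals of 16140029 to 44472230 bound the precision. Replicates are biological triplicates per the labels, and replicates of a group differed by more than sampling noise. Alternatives were DESeq2 1.42.0, other scalings, filters and thresholds, a replicate block and leaving out each library.

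The members and gene lists were chosen with earlier results of these data known. Sites named are, in each class, the called site with the largest change and a mean of at least 1 CPM, 1 per gene for up to 10 genes, the site of each gene nearest to its start if within 1000 bases, the 3 largest rises, and the 3 smallest p-values in combined against single silencing and between the combinations. The sites given beyond these, of ITGB1, ITGB5, ITGB6, ITGA4, ITGA6, ITGA7, VCL, PARVA, PARVB and FERMT2, were chosen after their values were seen. Sequences came from the GRCh38 reference, after site ends and RefSeq promoters were checked against it. For 39 of 44 member genes the deposited start site lay within 1000 bases of one in a reference gene annotation. Distances for the remaining genes rest on the deposited start sites alone. Some sequences are not reported here. Motifs were counted in the middle 300 bases.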

Additional observations from a re-analysis of the deposited data

Results flagged for a closer look

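The member sites below differed between the ARID1A and ARID1B shRNAs, or between the combinations, by the edgeR test of the difference itself (FDR under 0.01), and values are log2 differences. No explanation of them was tested.

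Lower with ARID1A than with ARID1B silencing were the sites of ITGA6 upstream (-1.09), ITGA1 in intron 1 (-1.06) and intron 6 (-0.37), ITGA2 in ITGA1 intron 9 (-0.74), ITGA8 in intron 12 (-0.56), ITGA11 upstream (-0.49), ITGA4 upstream (-0.46) and ITGA9 in intron 14 (-0.4). Of the adhesion genes these were the start site of TNS1 (-0.44), ILK in intron 2 (-0.4) and LIMS1 in intron 1 (-0.32). These are differences of means, and the shRNAs against the same gene did not always share them. At ILK, LIMS1 and ITGA1 in intron 6 only shARID1A.2 lay below all ARID1B libraries, and the other ARID1A shRNA overlapped with them. At ITGA11 only shARID1B.2 lay above all ARID1A libraries, and the other ARID1B shRNA did not. Higher with ARID1A than with ARID1B silencing were FERMT1 upstream (0.49), NEDD9 upstream (0.43) and the start site of PTK2 (0.32).

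Lower with shARID1A/B.2.3 than with shARID1A/B.4.2 were ITGA1 in intron 2 (-1.64), ITGA9 in intron 14 (-1.4) and at its start (-0.46), ITGB6 upstream (-0.69), BCAR1 in CFDP1 intron 5 (-1.01) and at its start (-0.49), TNS3 in intron 1 (-0.8) and at its start (-0.43), PARVB in intron 1 (-0.79), and the start sites of FERMT1 (-0.72) and TNS1 (-0.5). Higher were ITGA4 upstream (1.1) and ITGAV in intron 19 (0.66). Sites annotated as promoters took 23.4% to 24.0% of the reads with shARID1A/B.2.3 and 24.8% to 25.1% with shARID1A/B.4.2, and the part of this in the differences was not tested.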

How the results depend on the processing

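The counts of lower integrin and adhesion sites after combined silencing stayed within 1.5 times of the reported ones under every scaling, test and filter tried, at 45 to 70 and 38 to 69 (28 and 13 when a log2 change of at least 1 was also required). The counts of higher sites did not. Higher integrin sites numbered 0 with scaling on promoter sites, 11 with no filter, 11 with the replicate block, 12 with scaling on total counts, 14 with abundance-trended offsets, 4 with the DESeq2 Wald test, 18 at an FDR under 0.05 and 1 when the change also had to reach 1 (log2). Higher adhesion sites numbered 4 with scaling on promoter sites, 16 at an FDR under 0.05 and 1 when the change also had to reach 1. Scaling on promoter sites moved the median log2 change of all tested sites from 0.03 to -0.199. With it, higher member sites numbered 3 for shARID1A/B.2.3, 4 for shARID1A/B.4.2, 3 for shARID1A.4, 4 for shARID1B.2, 6 for shARID1B.3 and 1 for combined against single silencing. Over all 357029 tested sites these counts were 3918, 2893, 1558, 3275, 4215 and 1116 in that order. Lower member sites then numbered 121 for shARID1A/B.4.2, 74 for shARID1A.4, 22 for shARID1B.2 and 80 for shARID1B.3, and between the combinations 14 were lower and 16 higher. Over all tested sites 53888, 29566, 9253 and 29026 were lower in that order, and between the combinations 6443 were lower and 11832 higher. Higher sites in combined against single silencing numbered 1 with no filter and 4 with the replicate block. Higher integrin gene sums numbered 1 with the replicate block and 1 over sites more than 1000 bases from the start. The start site of ITGB8 turned to -0.25 with abundance-trended offsets and that of BCAR1 to -0.21 with scaling on promoter sites. The cause was not tested.

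Leaving out 1 library at a time gave 44 to 55 lower and 3 to 16 higher integrin sites, and 34 to 47 and 6 to 14 adhesion sites. Lower and higher member sites numbered 78 to 99 and 6 to 13 for shARID1A/B.2.3, 54 to 62 and 13 to 23 for shARID1A/B.4.2, 30 to 39 and 2 to 4 for shARID1A.2, 30 to 40 and 5 to 8 for shARID1A.4, 12 to 16 and 3 to 6 for shARID1B.2, and 38 to 46 and 5 to 16 for shARID1B.3. They numbered 47 to 63 and 1 to 4 for combined against single silencing, 20 to 26 and 6 to 8 for ARID1A against ARID1B silencing, and 23 to 28 and 3 to 5 between the combinations. Gene sums gave 7 to 9 lower and 0 to 1 higher integrin genes, and 8 to 10 and 0 to 3 adhesion genes. Deviations of same-numbered libraries had correlations of -0.16 to 0.305, and 10 of 18 silenced libraries correlated best with the Control library of their number. In 0 of 21 pairs of groups were all 3 over 0.1, so the replicate numbers were not used as pairs. Control and shARID1A/B.2.3 came nearest (0.0961, 0.305 and 0.0929 for replicates 1, 2 and 3), and with the replicate block 57 integrin and 48 adhesion sites were lower. Of 61 named tested sites, 41 were called, and 12 of these lost the call under at least 1 alternative. Sites near 1 CPM rest on few reads, and a missed call there does not show that accessibility was the same.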

Other observations

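Of 40 other genes of focal adhesion and integrin signalling, listed with earlier results of these data known, 39 had tested sites. After combined silencing 64 of their 592 sites (10.8%) were lower and 25 (4.22%) higher, with a median log2 change of 0.04, where 10.3% of all tested sites were lower and 3.43% higher. The lower sites belonged to 18 of the 39 genes, where 11789 of all 26740 genes had a lower site. FYN, which encodes a Src family kinase recruited by integrins, had 10 of 26 sites lower, and its lowest log2 change was -1.45. RSU1, which encodes a protein bound to PINCH1, had 8 of 57 sites lower, with a lowest change of -2.18. DOCK1, which encodes a Rac activator downstream of p130Cas, had 6 of 25 lower (lowest -1.63), and ACTN1, which encodes the actin cross-linker alpha-actinin-1, had 5 of 15 (lowest -0.97). PAK1, which encodes a Rac effector kinase, moved in both directions, with 5 of 32 sites lower and 3 higher. KANK1, which encodes a talin-binding protein at the rim of adhesions, had 2 higher sites of 66. The genes named here were chosen after their values were seen.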
